A study of Mus musculus with 19 samples.

Results

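Livers of mice carrying the TG genotype of Kcp were compared with WT livers after 4 weeks on a high-fat diet (HFD). The groups were read from the endings of the sample titles, TG_HFD with 4 arrays and WT_HFD with 3, and these 7 arrays are part of a series of 19. The other 12 arrays are KO livers on HFD and WT, KO and TG livers on a normal diet (ND), with 3 arrays in each group. All mice were 2 to 3 months old, RNA came from whole liver, and 400 ng of it was labelled per array. The sources used here name neither the promoter that drives the Kcp transgene, nor the number of transgenic lines, the strain, the sex or the hour of harvest, and the 3 genotype codes are not spelled out. Each title carries its own animal number, on which alone the replicates were taken as separate animals. The numbers were 3329, 3331, 3387 and 3391 for TG and 3275, 3276 and 3277 for WT, so they did not interleave, and genotype and cohort cannot be told apart.

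Kcp encodes a secreted protein with many cysteine-rich repeats. It binds ligands of the TGF-beta superfamily outside the cell and is known to strengthen signalling by bone morphogenetic proteins (BMPs) and to dampen that by activins and TGF-beta. In the liver BMP signalling is best known for inducing hepcidin, the iron hormone, while TGF-beta drives matrix production by stellate cells. On a diet rich in fat, hepatocytes take up fatty acids, store them in droplets coated by specific proteins and burn them under the control of the nuclear receptor PPARA, and the resident macrophages of the liver, the Kupffer cells, take part in inflammation.

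Of 22180 genes with a single symbol, 791 differed between TG and WT on HFD at an adjusted p under 0.05 in limma (Benjamini-Hochberg), which is 3.57%. TG was higher for 373 genes (1.68%) and lower for 418 (1.88%), and the median difference over all genes was -0.00405 on the log2 scale. Of the 791, 176 were higher and 141 were lower by at least 1 on that scale, 20 and 31 of them by at least 2, and 50 are predicted genes, small RNAs or the like that are counted but not named. The TG and WT arrays did not overlap for 760 of the 791 and for 12.3% of all genes. Leaving out WT replicate 1 or 3 lowered the count to 401 or 456, leaving out TG replicates 1 and 2 together lowered it to 285, and fitting the 7 arrays alone gave 248, of which 242 were among the 791. On ND, in other arrays of the same fit, TG and WT differed for 289 genes, or 1.3%. Where the mean of a group is dim (under 2, with array medians of 0.983 to 1.075), the printed difference is that of the deposited values and no exact fold, since the floor of the arrays sets it in part. On HFD this holds for Marco, Ly6c2, Cd4, Tlr13, Tlr7, Vldlr, Cidea, Mogat1, Gdpd3, Acot11, Cyp2c39, Cyp2c55, Slc22a27 and Hao2.

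**Figure D1:**
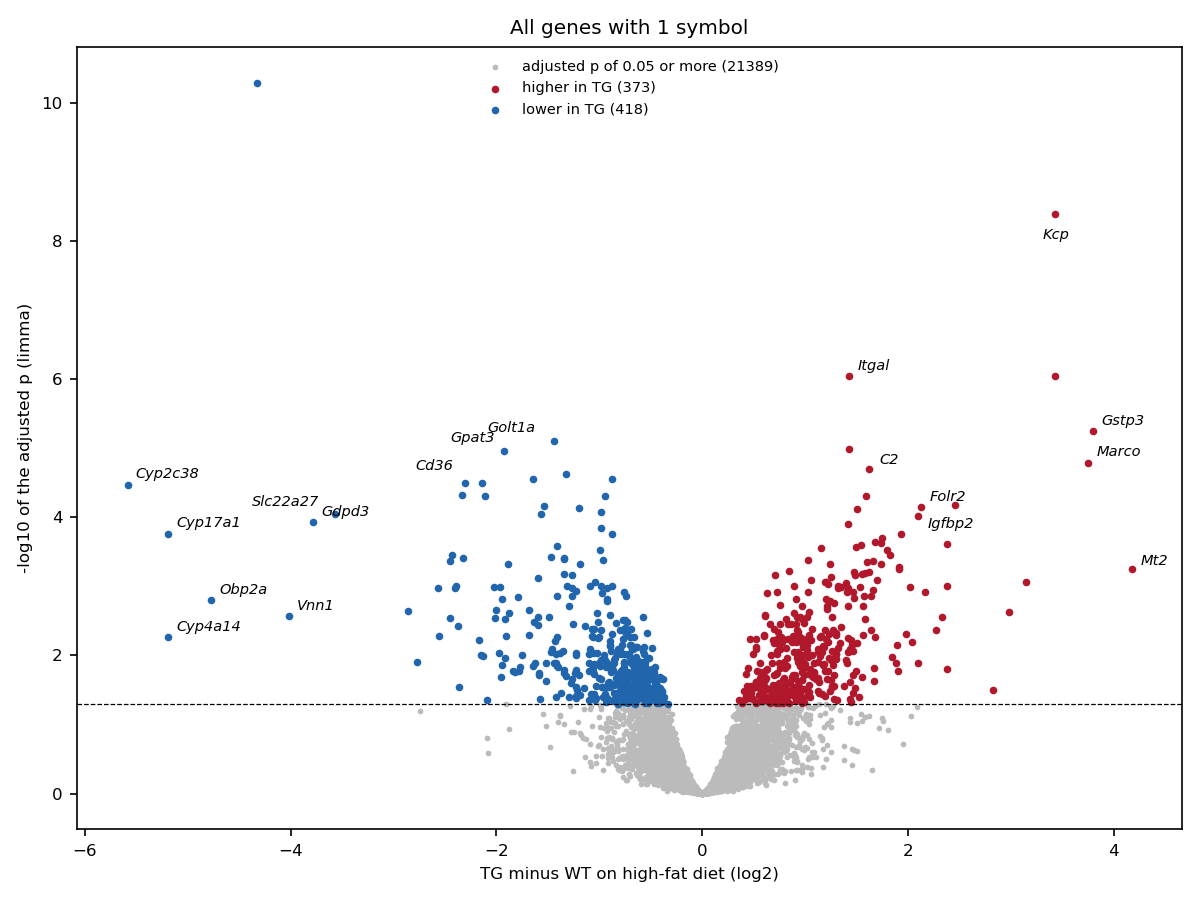
Each point is 1 of 22180 genes, with the TG minus WT difference on the high-fat diet (log2) on the x axis and the -log10 of the limma adjusted p on the y axis, where the dashed line is 0.05. The 373 genes higher in TG are red and the 418 lower are blue, and the largest falls, such as Cyp2c38 at -5.59, exceed the largest rise, Mt2 at 4.17.

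The tissue label and the state of the samples were checked first. No hepatocyte identity gene of 9 measured passed the test, with a median difference of 0.12, and the 9 measured markers of fat, muscle and pancreas were all dim (mean log2 under 2). To compare the hour of harvest, 9 evening-peaking genes of the circadian clock were averaged in each array and the average of 5 morning-peaking ones was subtracted. This clock score was 1.50 ± 0.25 (SD, n = 4) in TG and 1.60 ± 0.18 (n = 3) in WT. The groups differed by -0.105 with a two-sided exact permutation p of 0.629, where the smallest p that this design allows is 0.0571. TG replicate 2 had the lowest mean correlation over genes with the other TG arrays (0.9854 against 0.987 to 0.9881) and with the WT arrays (0.9768 against 0.9825 to 0.9852).

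Kcp itself was read at 5.60, 5.81, 5.52 and 5.73 (log2) in the TG arrays and at 1.77, 2.51 and 2.42 in the WT arrays. Every TG array lay far above every WT array, and the difference of 3.43 ± 0.18 (SE) was 10.8-fold with an adjusted p of 4.05e-09 in limma. On ND the difference of Kcp was 3.01, with TG means of 5.66 on HFD and 5.56 on ND. Of all genes 1 had a smaller adjusted p, Gm4788, a predicted gene singled out after its values were seen. It read 3.39, 2.87, 3.37 and 3.04 in TG and 7.30, 7.60 and 7.59 in WT, a difference of -4.33 ± 0.17 (adjusted p = 5.09e-11). On ND it differed by -4.08, and the mean of the KO livers on HFD was 7.50, near the WT mean. The strain background of the groups is not given in the sources used here, and its part in the difference of Gm4788 was not tested.

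Genes of the BMP and TGF-beta pathway were looked at next. Of 17 measured extracellular modulators none but Kcp passed the test. Among 29 ligands, receptors and SMADs, 1 was higher in TG and 2 were lower, or 10.3% beside 3.57% of all genes. The TGF-beta ligand Tgfb1 read 5.29, 5.73, 5.37 and 5.23 in TG and 3.99, 4.52 and 4.78 in WT, so it was higher in all 4 TG arrays, by 0.98 ± 0.21 (adjusted p = 0.0123). Its call was lost without WT replicate 1 (adjusted p = 0.0902). Inhbe, the activin subunit made by hepatocytes, fell by 1.38 (SE 0.35, adjusted p = 0.0345), and Bmp7, a BMP ligand, fell by 1.20 (SE 0.28, adjusted p = 0.0194). Leaving out single arrays raised these adjusted p-values to as much as 0.149 for Inhbe and 0.0795 for Bmp7.

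Of 16 measured target genes of the pathway 1 passed, or 6.25%, near the 3.57% of all genes. This was Tgfbi, which encodes a matrix protein named for its induction by TGF-beta. It was higher in TG on HFD by 0.52 ± 0.12 (adjusted p = 0.0245) and on ND by 0.90 (adjusted p = 0.000983), and the first call was lost when any of 4 arrays was left out, with an adjusted p of up to 0.136. Hamp, which encodes hepcidin, read 11.15, 10.13, 11.31 and 10.93 in TG and 10.66, 11.48 and 11.42 in WT. The groups overlapped, and the difference was -0.31 ± 0.24 (adjusted p = 0.611). The BMP target Id1 differed by -0.17 ± 0.19 (adjusted p = 0.743), and Smad7, an inhibitory SMAD induced by both arms of the pathway, by -0.52 ± 0.19 (adjusted p = 0.153). None of 28 measured genes of extracellular matrix and remodelling passed the test. A p that misses the threshold does not show that these levels were alike.

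Mt2 had the largest rise of all genes, and Mt1 rose too. Both encode small proteins that bind zinc and copper and are known to be induced by metals and glucocorticoids through short promoter elements, so the promoter window of Mt2 is shown. It is the 250 bases before the RefSeq start of the gene on GRCm38.p6, at chr8:94172368-94172617 on the plus strand. Capitals mark matches to the core of the metal response element, TGCNCNC, searched on both strands.

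Mt2: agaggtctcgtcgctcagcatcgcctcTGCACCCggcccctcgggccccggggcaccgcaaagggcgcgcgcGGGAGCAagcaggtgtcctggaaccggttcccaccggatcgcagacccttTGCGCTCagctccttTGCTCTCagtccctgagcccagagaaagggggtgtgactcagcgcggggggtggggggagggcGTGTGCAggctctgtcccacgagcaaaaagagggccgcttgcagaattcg

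The window held 5 matches, 3 on the plus and 2 on the minus strand, none overlapping another. Of 16990 tested genes with a promoter in the RefSeq table, 47.0% held at least 1 match in a window of this length, and 0.335% held 5 or more. The window before the annotated start of Mt1 held 1 match, and 47.0% of promoters held at least that many. Among genes higher in TG the share with a match was 52.1% of 282 promoters, and among genes lower in TG it was 52.4% of 336. A match of letters is a description of the sequence and does not show that a factor was bound.

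Mt2 read 9.64, 10.35, 9.27 and 8.97 in TG and 4.86, 6.01 and 5.28 in WT. The lowest TG array lay nearly 3 log2 units above the highest WT array, and the difference was 4.17 ± 0.59, or 18.1-fold (adjusted p = 0.000563). Mt1 read 8.14, 8.44, 7.45 and 7.22 in TG and 4.08, 5.33 and 4.61 in WT, a difference of 3.14 ± 0.47 (adjusted p = 0.000869). In both genes TG replicate 2 was the highest array and WT replicate 1 the lowest. On ND the same genes were higher in TG by 4.75 and 3.51. Of the 9 measured genes of metallothionein and zinc transport 4 rose and none fell, or 44.4% beside 3.57% of all genes. The median was 0.01, however, with 5 differences above 0 and 4 below. The other two were the zinc importers Slc39a4, higher by 1.44 ± 0.39 (adjusted p = 0.0466), and Slc39a14, higher by 0.66 ± 0.18 (adjusted p = 0.0428). Without single arrays their adjusted p reached 0.171 and 0.132, and 2 of the 4 calls were left without WT replicate 1, 2 or 3 or TG replicate 1 or 2.

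**Figure D2:**
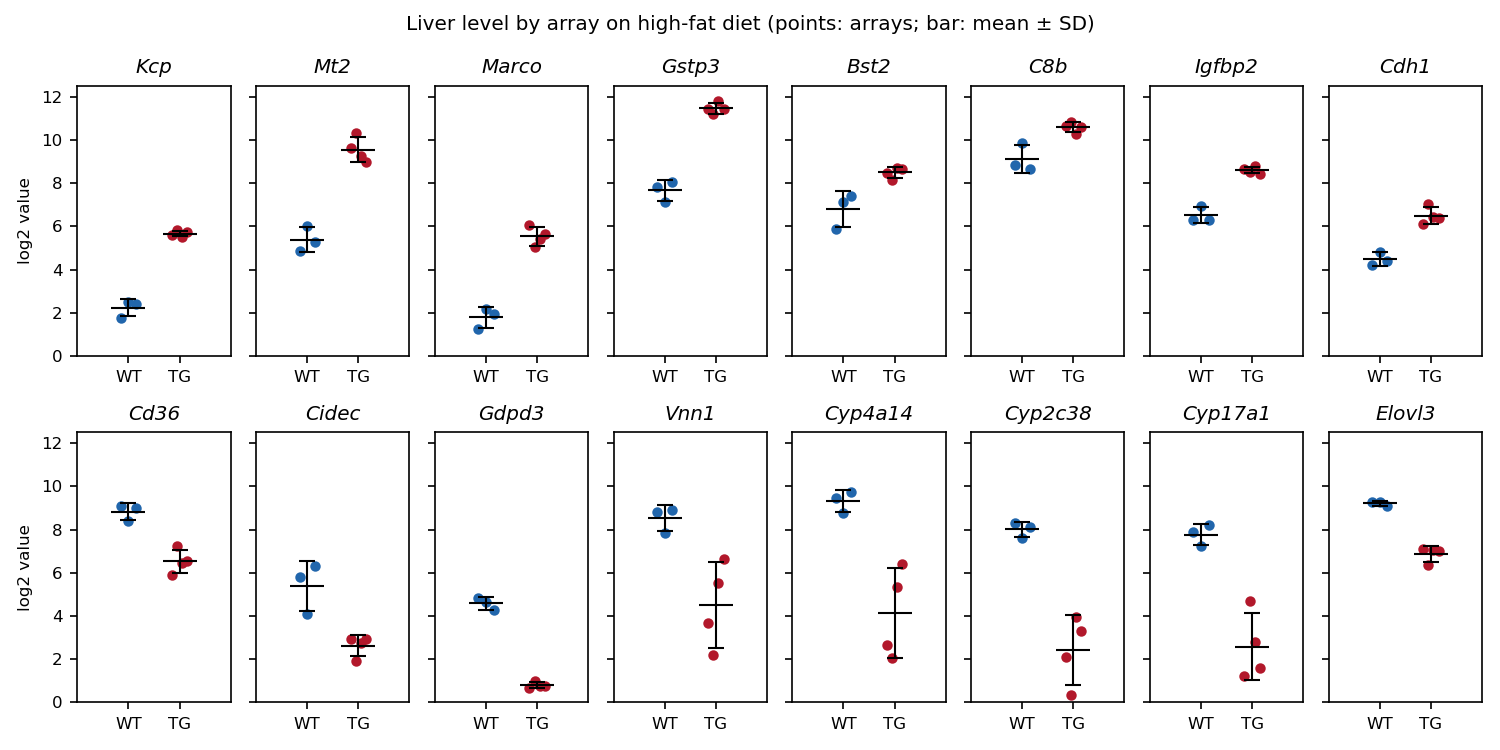
Each panel shows 1 gene, with the log2 value of every array on the y axis (points), the 3 WT arrays in blue and the 4 TG arrays in red, and the mean ± SD in black. In all 16 genes the arrays of the groups did not overlap, and the TG arrays were most spread for Cyp4a14, Vnn1, Cyp2c38 and Cyp17a1.

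Markers of Kupffer cells and macrophages were higher in TG. Of 24 measured, 18 rose, none fell and 6 did not pass, and all 24 differences were above 0, with a median of 1.38 against -0.00405 over all genes. The mean of the list per array ran from 5.55 to 6.04 in TG and from 4.39 to 4.73 in WT. On ND 17 of the 24 rose, with a median of 1.30, where 0.924% of all genes were higher in TG and 0.379% were lower. Leaving out WT replicate 2 left 14 of the 18 calls, leaving out TG replicates 1 and 2 together left 10, and the median stayed between 1.15 and 1.60 in every alternative. In pieces of whole tissue, more cells of a type and more RNA per cell cannot be told apart.

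Marco, the scavenger receptor of resident macrophages, read 6.08, 5.03, 5.41 and 5.63 in TG and 1.26, 2.16 and 1.95 in WT. The difference was 3.75 ± 0.36 (adjusted p = 1.62e-05), against a WT mean of 1.79. Clec4f, a lectin that in mice marks Kupffer cells, read 7.91, 7.82, 7.56 and 7.47 against 6.46, 5.93 and 6.43, which put every TG array at least 1 log2 unit above WT, with a difference of 1.42 ± 0.17 (adjusted p = 0.000124). Folr2, a folate receptor of resident macrophages, differed by 2.13 ± 0.24, and Cd163, the receptor that clears haemoglobin, by 2.04 ± 0.40. Hmox1, which degrades haem, was higher by 1.60 ± 0.22, and Csf1r, the receptor that macrophages need to survive, by 1.55 ± 0.20. Vsig4, a complement receptor, differed by 1.42 ± 0.29 and Timd4, a receptor for dying cells, by 0.87 ± 0.22 (adjusted p = 0.0306). Of those named, the call of Timd4 was the one lost without single arrays (adjusted p of up to 0.134).

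Itgal, Axl, Ccr3 and Itgb2, named for the size or p of their differences, were higher too. Itgal, an integrin chain of leukocytes, read 4.27, 4.14, 4.14 and 4.03 in TG and 2.76, 2.62 and 2.77 in WT, a difference of 1.43 ± 0.11 (adjusted p = 8.96e-07), and on ND it was higher by 1.69. Axl, a receptor kinase for the clearance of dying cells, differed by 1.42 ± 0.13 (adjusted p = 1.04e-05) and by 1.21 on ND. Ccr3, a chemokine receptor, differed by 2.46 ± 0.28, and Itgb2, the beta chain that pairs with Itgal, by 1.91 ± 0.27. The SD over the TG arrays was 0.10 for Itgal, 0.15 for Axl, 0.18 for Ccr3 and 0.43 for Itgb2.

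**Figure D3:**
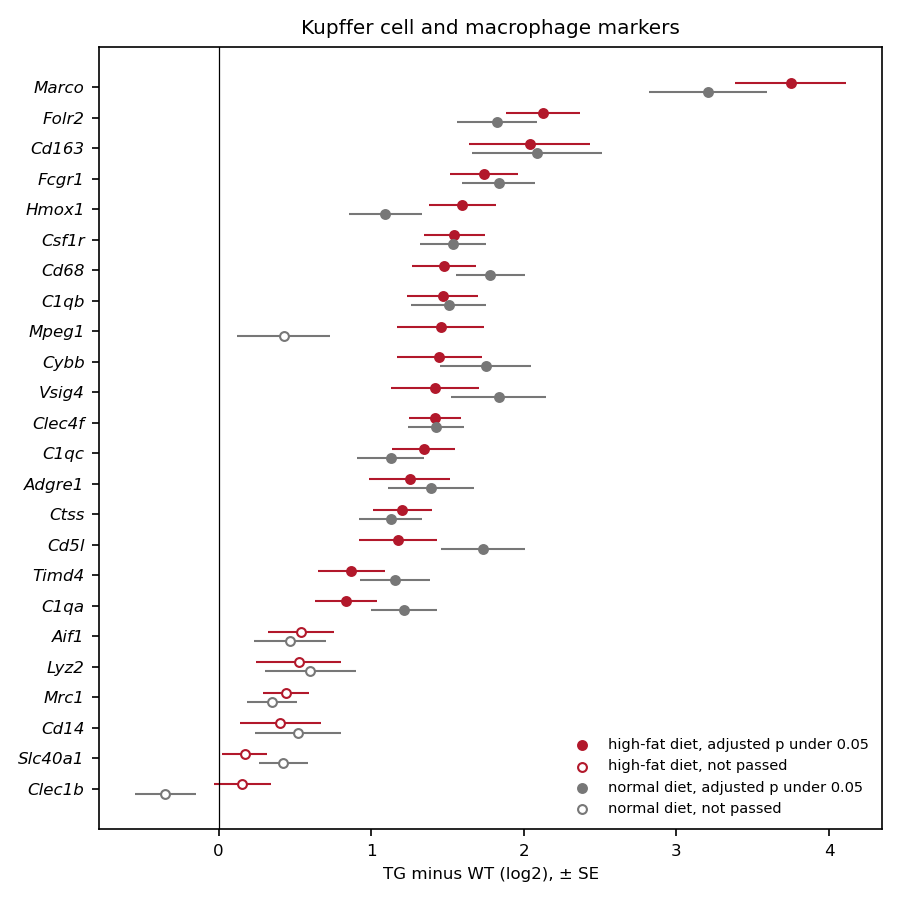
The 24 measured Kupffer cell and macrophage markers are shown with the TG minus WT difference (log2, ± SE) on the x axis, for the high-fat diet in red and the normal diet in grey, and filled points passed the test. All 24 differences on HFD lie to the right of 0, from 0.16 to 3.75.

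Smaller shares of the markers of other cell types passed the test. They ran from 0.0% for MHC class II and dendritic cells to 16.7% for T and NK cells, beside 75.0% of the macrophage markers and 3.57% of all genes. Many were dim, where the floor of the arrays limits any difference. Dim were 11 of 12 measured genes of monocytes and neutrophils, 11 of 12 of T and NK cells, 8 of 9 of B and plasma cells and 2 of the 24 macrophage markers. The list mean of T and NK cells still ran from 1.221 to 1.543 in TG arrays and from 0.9327 to 1.1 in WT arrays. That of B and plasma cells ran from 1.565 to 2.253 in TG and from 1.161 to 1.226 in WT. Those of monocytes and neutrophils, dendritic, sinusoidal endothelial, stellate and bile duct cells overlapped. A separate list of lipid-associated macrophages had 3 of 9 measured genes higher and none lower (33.3%), with a median of 0.36, and 4 of the 9 were dim. Fabp5 and Lpl, given below with fatty acid uptake, are among the 3. The mean of that list ran from 3.191 to 3.919 in TG arrays and from 2.759 to 3.063 in WT arrays. Of 12 measured genes of monocytes and neutrophils 1 rose, and the mean of the list was 2.16 in TG replicate 2, above its range in the other TG and WT arrays. Ly6c2, a monocyte marker, read 1.95, 3.53, 2.05 and 1.77 in TG and 1.04, 1.09 and 0.55 in WT (difference 1.43 ± 0.38, adjusted p = 0.0426), and TG replicate 2 stood alone at the top. The call was lost without WT replicate 1, 2 or 3 or TG replicate 1 or 2. Of 12 genes of T and NK cells 2 rose, Cd4 and the chemokine Ccl5, each a call lost without any 1 of 6 arrays, and of 9 genes of B and plasma cells 1, the immunoglobulin chain Ighm, which was higher by 2.38 ± 0.36 (adjusted p = 0.001). None of 10 genes of MHC class II and dendritic cells passed, 1 of 12 sinusoidal endothelial genes did, and 2 of 16 stellate cell genes did. The endothelial gene was Lyve1, a hyaluronan receptor, with 3.81, 5.88, 4.15 and 4.10 in TG and 3.49, 2.31 and 3.10 in WT. TG replicate 2 was again the highest, and the call was lost when any of 4 arrays was left out. Of 6 genes of bile duct cells 1 was lower, Pkhd1, by a difference of -1.01.

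Innate receptors and the interferon genes followed. Of 19 measured genes of pattern recognition 6 were higher and 1 was lower, or 36.8% beside 3.57% of all genes, with a median of 0.56. With the 7 arrays alone, or without TG replicates 1 and 2, none of the 6 passed, and leaving out WT replicate 1 or 3 left 3. Tlr13, a sensor of bacterial RNA, was higher by 1.98 ± 0.37 (adjusted p = 0.00487), and Tlr7, a sensor of single-stranded RNA, by 1.30 ± 0.27 (adjusted p = 0.00943). The exception was Tlr5, the flagellin receptor, with 4.20, 3.41, 4.57 and 5.21 in TG and 5.91, 5.53 and 5.99 in WT. It was lower in every TG array, by a difference of -1.46 ± 0.29 (adjusted p = 0.00812). Of 22 measured genes of cytokines, chemokines and adhesion 2 were higher and none was lower, or 9.09% beside 3.57% of all genes. Their median was 0.40, with 16 differences above 0 and 6 below. The 2 were Vcam1, an adhesion molecule for leukocytes, higher by 1.83 ± 0.25, and Il18bp, which neutralises interleukin 18, by 1.30 ± 0.24. Il1r1, the receptor for interleukin 1, read 8.51, 8.88, 6.97 and 7.05 in TG against 5.73, 6.23 and 5.89 in WT, with replicates 1 and 2 higher than replicates 3 and 4, and differed by 1.91 ± 0.43 (adjusted p = 0.0167). Its call was lost when any of 4 arrays was left out.

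Of 24 interferon-stimulated genes measured, 6 rose and none fell, or 25.0% beside 3.57% of all genes. Of their differences 23 were above 0, with a median of 0.53. On ND 7 rose, or 29.2% beside 1.3% of all genes. Ifi27, a mitochondrial protein, read 7.92, 7.39, 7.82 and 7.78 in TG and 6.22, 6.17 and 6.29 in WT, more than 1 log2 unit apart, with a difference of 1.50 ± 0.17 (adjusted p = 7.66e-05). Irf7, the factor that amplifies interferon production, was higher by 1.24 ± 0.20 (adjusted p = 0.00163), Oas2, a sensor of double-stranded RNA, by 1.64 ± 0.30 (adjusted p = 0.0043), and Usp18, which limits the response, by 1.40 ± 0.30 (adjusted p = 0.0128). Rtp4 was higher by 1.07 ± 0.22 (adjusted p = 0.00971). The calls of Usp18 and Rtp4 were lost without WT replicate 1, at adjusted p-values of 0.0695 and 0.0551, and that of Usp18 also without WT replicate 2. The sixth was Bst2, which tethers enveloped viruses to the cell. Its promoter window, at chr8:71537473-71537722 on the minus strand of GRCm38.p6, is shown because it holds a pair of overlapping matches to the core of the interferon-stimulated response element, in capitals. The core was searched on both strands as GAAA, any 2 bases and GAAA again.

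Bst2: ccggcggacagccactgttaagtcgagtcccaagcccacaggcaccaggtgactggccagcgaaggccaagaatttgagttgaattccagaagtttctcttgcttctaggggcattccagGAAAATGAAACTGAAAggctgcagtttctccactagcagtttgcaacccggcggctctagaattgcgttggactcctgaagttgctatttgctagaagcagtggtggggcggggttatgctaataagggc

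Both matches lie on the strand shown. Of the 16990 promoters 2.96% held this motif on either strand, and 0.259% held at least 2 matches. It was held by 8 of the 16 interferon-stimulated genes in the table, by 6.03% of the promoters of genes higher in TG and by 2.38% of those of genes lower in TG. Bst2 itself read 8.47, 8.15, 8.72 and 8.68 in TG and 5.87, 7.14 and 7.43 in WT. WT replicate 1 lay well below the other WT arrays, and the difference was 1.69 ± 0.25 (adjusted p = 0.000799).

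Of 21 measured complement genes, 11 were higher and none was lower, or 52.4% beside 3.57% of all genes. The median was 0.81, and single omissions left 10 to 12. On ND 5 of the 21 were higher, or 23.8% beside 1.3% of all genes, with a median of 0.18. The largest rise was that of C4a, named after its values were seen, with 8.23, 8.30, 7.44 and 7.40 in TG and 4.01, 4.98 and 4.27 in WT. It differed by 3.43 ± 0.26 on HFD (adjusted p = 8.96e-07) and by 3.82 on ND, and its probes may share signal with the paralog C4b. Of the 11, 3 are the C1q chains, which are made by macrophages and are in that list too. C2, the protease of the classical pathway, read 7.36, 7.73, 7.12 and 7.22 in TG and 5.54, 6.18 and 5.48 in WT, a difference of 1.62 ± 0.16 (adjusted p = 1.97e-05). C8b, a subunit of the membrane attack complex, read 10.67, 10.83, 10.30 and 10.61 in TG and 8.86, 9.84 and 8.66 in WT, and differed by 1.48 ± 0.22 (adjusted p = 0.000692). WT replicate 2 was closest to TG in both. Other parts of the same complex were higher too, C8a by 1.02 ± 0.18, C6 by 0.81 ± 0.16 and Hc, which encodes C5, by 0.67 ± 0.14. On ND the differences of C8a, C8b, C6 and Hc were 0.22, 0.15, 0.18 and 0.10, and none passed. For each of the 4 the difference between the diets also missed the threshold, at adjusted p-values from 0.12 to 0.505.

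Other secreted proteins of the liver differed less. None of 20 acute-phase genes passed, at a median of 0.35, and none of 16 coagulation genes, at a median of 0.27 with 15 of the differences above 0. Among 11 serpins 2 rose, or 18.2% beside 3.57% of all genes. Serpina1e, an alpha-1-antitrypsin paralog, read 10.38, 10.77, 10.53 and 10.41 in TG and 7.39, 9.66 and 8.01 in WT. The WT arrays spread over more than 2 log2 units, and the difference was 2.17 ± 0.34 (adjusted p = 0.00122). Its sequence is close to that of its paralogs, and probes may not tell them apart.

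Uptake of fatty acids was described by 16 measured genes, of which 3 were lower and 2 were higher, or 31.2% beside 3.57% of all genes. The median was 0.00, with 8 differences on each side of 0. Cd36, the fatty acid transporter, read 5.90, 7.23, 6.45 and 6.55 in TG and 9.11, 8.39 and 9.02 in WT, which was 4.94-fold lower, a difference of -2.31 ± 0.24 (adjusted p = 3.17e-05). On ND Cd36 was also lower in TG, by a difference of -1.30 (adjusted p = 0.0142). Vldlr and Fabp2 were lower too, Fabp2 with a call that was lost without WT replicate 1, WT replicate 3 or TG replicate 1 (adjusted p of up to 0.128). Fabp5 and Lpl, both expressed by macrophages as well, were higher by 1.64 ± 0.26 and 1.67 ± 0.40. The call of Lpl was lost without WT replicate 1, WT replicate 3 or TG replicate 2 (adjusted p of up to 0.11), which left Fabp5. Vldlr, a lipoprotein receptor, read 1.93, 1.02, 2.27 and 2.16 in TG and 3.44, 3.84 and 3.31 in WT, a difference of -1.68 ± 0.28 (adjusted p = 0.00219).

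Of 17 genes of the droplet coat and of lipolysis 3 were lower and none was higher, or 17.6% beside 3.57% of all genes. The median was -0.59. Cidec, which enlarges lipid droplets, read 2.94, 1.91, 2.76 and 2.92 in TG and 5.82, 4.09 and 6.29 in WT. It was lower in every TG array, by a difference of -2.77 ± 0.59 (adjusted p = 0.0123), though WT replicate 2 lay well below the other WT arrays. The call was lost without WT replicate 1 or 3, at an adjusted p of up to 0.0807. Fitm1, which promotes droplet formation, read 6.75, 5.06, 6.49 and 6.72 against 8.90, 8.09 and 8.97, and differed by -2.40 ± 0.37 (adjusted p = 0.00106). Over the alternatives the difference of Fitm1 ran from -2.752 to -1.317, and the call was kept in each. Without WT replicate 2 the count on the list was 5. Plin3, a coat protein, differed by -0.98 ± 0.12 (adjusted p = 0.000141). Cidea, a relative of Cidec, was at 0.77, 0.65, 0.98 and 0.89 in TG and at 4.41, 2.13 and 4.15 in WT, a difference of -2.74 ± 0.79 that missed the threshold (adjusted p = 0.0646). Plin2, the main coat protein of hepatocyte droplets, differed by -0.85 ± 0.26 (adjusted p = 0.0791).

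Of 20 measured genes of triglyceride and phospholipid synthesis 4 were lower and none was higher, with a median of -0.17 and 6 differences above 0, the highest at 1.44. None passed on ND. Gpat3, which adds the first acyl chain to glycerol phosphate, read 3.43, 3.93, 3.43 and 3.46 in TG and 5.44, 5.16 and 5.86 in WT, a difference of -1.92 ± 0.18 (adjusted p = 1.09e-05). Over the alternatives the difference of Gpat3 ran from -2.086 to -1.024, and the call was kept in each. Mogat1, which acylates monoglycerides, was dim in all TG arrays, from 0.83 to 1.05, and read 3.64, 2.70 and 3.62 in WT, a difference of -2.43 ± 0.33 (adjusted p = 0.000355). Gdpd3, a lysophospholipase D, was at 0.69, 0.99, 0.77 and 0.75 in TG and at 4.84, 4.65 and 4.28 in WT, a difference of -3.79 ± 0.46 (adjusted p = 0.000118). Pparg, the nuclear receptor that promotes fat storage, is not on this list. It read 2.94, 3.27, 3.65 and 4.03 in TG and 5.21, 4.19 and 5.57 in WT. The groups came within 0.2 of each other at WT replicate 2, and the difference was -1.52 ± 0.33 (adjusted p = 0.0128), a call that was lost when either of 2 arrays was left out. Of 21 measured genes of apolipoproteins and lipoprotein handling 1 was lower and 2 were higher, or 14.3% beside 3.57% of all genes. The median of that list was -0.07. The lower one was Apoa4, an apolipoprotein that rises with fat in the liver, which differed by -1.41 ± 0.27 (adjusted p = 0.00546).

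Of 21 genes that make, lengthen or desaturate fatty acids 4 were lower, or 19.0% beside 3.57% of all genes. A difference below 0 was seen for 20, with a median of -0.47. Elovl3, an elongase, read 7.12, 6.34, 7.08 and 7.01 in TG and 9.30, 9.29 and 9.08 in WT, a difference of -2.33 ± 0.25 (adjusted p = 4.75e-05). The other calls were close to the threshold. Scd1, the main desaturase, overlapped between the groups, with 9.63, 9.36, 10.58 and 9.11 against 10.94, 10.23 and 11.08 (difference -1.08 ± 0.28, adjusted p = 0.0361). When 1 array was left out, 1 to 5 of the genes on the list passed, with 1 alone without WT replicate 1, WT replicate 3, TG replicate 1 or TG replicate 2 and 2 without TG replicate 4. Cholesterol synthesis and uptake had 1 lower gene of 21, Insig2, a brake on sterol synthesis, at -0.75 ± 0.17. That share, 4.76%, is near the 3.57% of all genes, and the call was lost without any 1 of 4 arrays (adjusted p of up to 0.116).

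Of 17 measured targets of PPARA outside the oxidation pathway, 7 were lower and none was higher, or 41.2% beside 3.57% of all genes. The median was -0.99. Cyp4a14, a fatty acid hydroxylase, read 2.68, 2.08, 5.37 and 6.43 in TG and 9.46, 8.79 and 9.75 in WT, which was 36.6-fold lower, a difference of -5.19 ± 0.99 (adjusted p = 0.0055). Vnn1, a pantetheinase, read 3.66, 2.19, 5.54 and 6.63 in TG and 8.82, 7.83 and 8.92 in WT, a difference of -4.02 ± 0.69 (adjusted p = 0.00269). In both genes TG replicates 1 and 2 were lowest, and replicates 3 and 4 lay between them and WT. Without replicates 1 and 2 the differences were -3.43 and -2.43 in the remaining arrays, and the call of Cyp4a14 was lost. That call was also lost without WT replicate 1 and TG replicate 2 together, and the call of Vnn1 was lost with the 7 arrays alone. The list kept 3 calls without WT replicate 1 and 4 without WT replicate 3, and 2 with the 7 arrays alone.

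Of 10 acyl-CoA thioesterases, which release free fatty acids from CoA, 4 were lower, with a median of -0.97. Acot3 read 1.94, 1.55, 3.14 and 3.11 in TG and 5.50, 3.43 and 6.04 in WT, a difference of -2.56 ± 0.48 (adjusted p = 0.00528), and WT replicate 2 came close to the highest TG arrays. Acot4 differed by -1.90 ± 0.36, Acot2 by -2.13 ± 0.44 and Acot11 by -1.27 ± 0.19. Acot2, Acot3 and Acot4 are neighbouring paralogs, so their probes may share signal. Crat, the carnitine acetyltransferase, differed by -1.63 ± 0.29 (adjusted p = 0.00327), and Acss3, a mitochondrial synthetase for short acyl-CoAs, by -2.45 ± 0.34 (adjusted p = 0.000423). Mitochondrial oxidation and ketogenesis had no gene of 20 that passed, although 18 differences were below 0, with a median of -0.25. None of 22 genes of the respiratory chain passed either, with a median of -0.05.

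**Figure D4:**
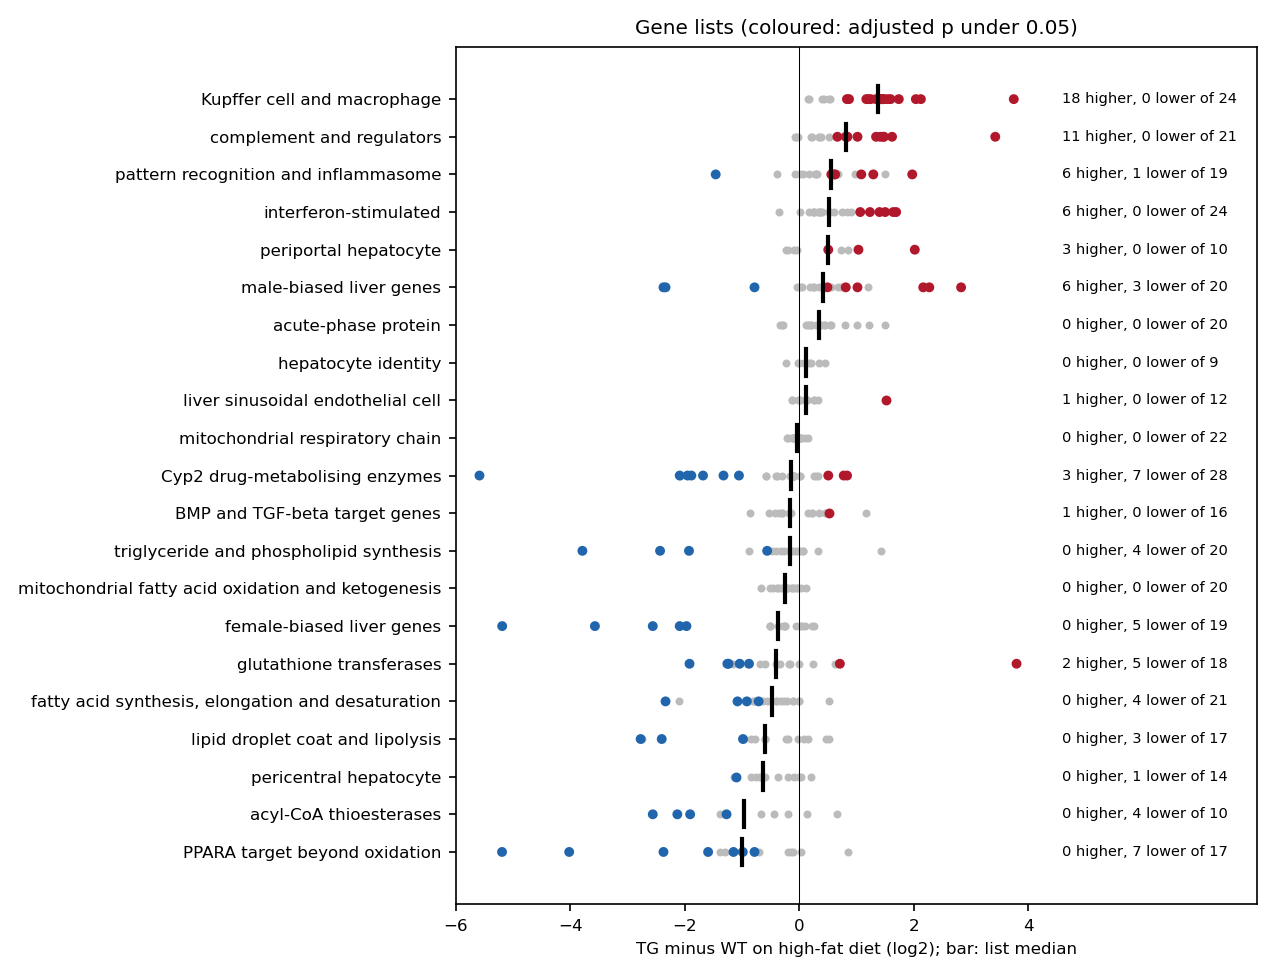
Each row is a gene list, each point the TG minus WT difference of a measured member on the high-fat diet (log2, x axis), coloured where the adjusted p is under 0.05, and the black bar is the median of the list. The macrophage list has the highest median, 1.38, and the PPARA targets the lowest, -0.99, while the counts of higher and lower members stand on the right.

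Cytochromes P450 and other detoxifying enzymes changed in both directions. Of 28 Cyp2 genes 7 were lower and 3 were higher, or 35.7% beside 3.57% of all genes. Without WT replicate 1 or 3 the count of higher genes was 1. Cyp2c38, which oxidises arachidonic acid, had the largest fall of all genes. It read 2.10, 0.32, 3.96 and 3.33 in TG and 8.29, 7.62 and 8.14 in WT, a difference of -5.59 ± 0.59 (adjusted p = 3.37e-05). Cyp2c29, a relative, read 9.63, 9.26, 9.41 and 9.10 in TG and 10.57, 10.83 and 10.61 in WT, a difference of -1.32 ± 0.13 (adjusted p = 2.39e-05). Its size depended on the processing, from -1.417 to -0.6146 over the alternatives, though the call was kept in each. Cyp2c37, Cyp2c39 and Cyp2c55 were lower too, by differences of -1.88 ± 0.26, -1.68 ± 0.31 and -1.95 ± 0.32, whereas Cyp2c23, another member of the family, was higher by 0.78 ± 0.15 (adjusted p = 0.0064). Genes of the Cyp2c cluster are close in sequence, so signal may be shared between their probes.

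Of 18 glutathione transferases 2 were higher and 5 were lower, or 38.9% beside 3.57% of all genes. Gstp3, a pi-class enzyme, read 11.45, 11.19, 11.79 and 11.43 in TG and 7.83, 7.11 and 8.07 in WT, 13.9-fold higher, a difference of 3.80 ± 0.33 (adjusted p = 5.69e-06). On ND it was higher by 4.29. In the KO livers on HFD its mean was 10.87, also above the WT mean of 7.67. Gsto1 was higher by 0.71 ± 0.10, with all TG arrays between 6.88 and 6.92 and all WT arrays between 6.12 and 6.22. Gstt3 differed by -1.92 ± 0.33 and Gstk1, an enzyme of peroxisomes and mitochondria, by -0.88 ± 0.13. The calls among the lower genes fell from 5 to 3 without WT replicate 1, WT replicate 3, TG replicate 1 or TG replicate 2. Among 16 measured genes of NRF2 and redox control 3 were lower and 1 was higher, or 25.0% beside 3.57% of all genes. Nqo1, a quinone reductase, was lower at -1.41 ± 0.23 (adjusted p = 0.00136). Srxn1 and Ephx1 were lower with calls lost without any 1 of 2 and of 5 arrays (adjusted p of up to 0.0935 and 0.175). The 1 that was higher was Hmox1, given above with the macrophage markers. Abcc3, an exporter of bile acids and glucuronides, differed by -1.38 ± 0.28 (adjusted p = 0.00913, and 0.0514 without WT replicate 1).

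Of 15 measured genes of steroid metabolism 3 were higher and 1 was lower, or 26.7% beside 3.57% of all genes. The median was 0.02, with 8 differences above 0 and 7 below, and 1 was higher without WT replicate 1 or 3. Cyp17a1, which makes androgen precursors, read 1.21, 4.70, 2.82 and 1.62 in TG and 7.88, 7.25 and 8.20 in WT, a difference of -5.19 ± 0.65 (adjusted p = 0.000173), and TG replicate 2 was the highest of the 4. On ND it was lower as well, by a difference of -3.18 (adjusted p = 0.0248). The KO livers on HFD had a mean of 1.93, below the TG mean of 2.59. Hsd3b5, a male-biased steroid reductase, read 6.07, 6.01, 6.63 and 6.74 in TG and 4.59, 4.89 and 2.78 in WT, a difference of 2.27 ± 0.42 (adjusted p = 0.00433). Of 20 male-biased liver genes measured 6 were higher and 3 were lower, or 45.0% beside 3.57% of all genes, with a median of 0.42. Of 19 female-biased genes 5 were lower and none was higher, or 26.3%. Their median was -0.37, and 10 of the 19 were dim. Both lists share members with other lists here and are no separate count. C6, C8a, Serpina1e and Hsd3b5 are among the higher male-biased genes and Elovl3 among the lower. Cyp17a1 and Acot3 are among the lower female-biased genes. Slc22a27, a female-biased organic anion transporter, was at 0.28, 0.48, 0.64 and 0.44 in TG and at 3.45, 3.29 and 5.35 in WT, a difference of -3.57 ± 0.42 (adjusted p = 8.97e-05). Hao2, a peroxisomal oxidase biased to females, differed by -1.97 ± 0.30 (adjusted p = 0.00101). Obp2a, an odorant-binding lipocalin, read 5.06, 6.02, 2.37 and 3.59 in TG and 9.09, 9.82 and 8.20 in WT, a difference of -4.78 ± 0.78 (adjusted p = 0.00158), with 5.32 in the mean of the KO livers on HFD.

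Among secreted factors, Igfbp2, which binds insulin-like growth factors, read 8.66, 8.53, 8.79 and 8.45 in TG and 6.30, 6.95 and 6.29 in WT, a difference of 2.09 ± 0.25 (adjusted p = 9.49e-05). Enho, which encodes the peptide adropin, read 4.18, 4.56, 4.31 and 4.20 in TG and 2.82, 2.58 and 2.51 in WT, a difference of 1.68 ± 0.22 (adjusted p = 0.000232). Both were tight within each group. Igfbp1, a relative that fasting induces, was highest in TG replicate 2 at 8.42 and differed by 2.08 ± 0.58 (adjusted p = 0.0554).

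Genes of the zones of the liver lobule came next. Of 10 periportal genes 3 were higher, beside 1.68% of all genes, with a median of 0.50, 6 differences above 0 and 4 below. Of 14 pericentral genes 1 was lower, beside 1.88% of all genes, with a median of -0.63 and 12 differences below 0. The mean of the periportal list ran from 7.749 to 8.162 in TG arrays and from 7.225 to 7.65 in WT arrays. That of the pericentral list ran from 6.687 to 7.549 in TG and from 7.608 to 7.835 in WT. In neither list did these ranges overlap. Cdh1, the cadherin of periportal hepatocytes, read 6.09, 7.06, 6.41 and 6.41 in TG and 4.19, 4.83 and 4.40 in WT, a difference of 2.02 ± 0.31 (adjusted p = 0.00104). Ctsc, a protease that leukocytes express too, was higher by 1.04 ± 0.18, and Cyp2f2, a periportal cytochrome, by 0.51 ± 0.12 (adjusted p = 0.0264), a call lost without WT replicate 1, WT replicate 3 or TG replicate 4 (adjusted p of up to 0.126). Oat, the pericentral ornithine transaminase, differed by -1.10 ± 0.29 (adjusted p = 0.0441), and Glul, glutamine synthetase of the cells around the central vein, by -0.66 ± 0.20 (adjusted p = 0.0729). The pericentral count depended on single arrays, with 0 calls without WT replicate 1, 2 or 3 or TG replicate 1 and 5 without TG replicate 4.

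The TG effect was set beside that on ND, and the difference between the effects was tested. The group means on ND came from other arrays than those on HFD. Both diets were fitted in the same model with a shared variance per gene, so their p-values are not independent of each other. The test of the difference between the effects used all 4 of these groups. It passed for 49 genes, or 0.221%, for 24 without WT replicate 1 and for 27 once that score was added to the model as a covariate. It was 1.50 in TG and 1.60 in WT on HFD but -1.72 ± 0.47 (SD, n = 3) in TG and -1.04 ± 1.01 (n = 3) in WT on ND, so diet and clock phase cannot be told apart. Nt5e, which turns AMP into adenosine, read 2.92, 2.64, 2.67 and 2.92 in TG and 4.69, 4.75 and 5.35 in WT on HFD, a difference of -2.14 ± 0.23. On ND its difference was 0.24, and the effects differed by -2.38 (adjusted p = 0.00332). Ide, the insulin-degrading enzyme, read 7.84, 7.74, 7.97 and 8.00 in TG and 8.73, 8.75 and 8.82 in WT on HFD, a small but regular difference of -0.88 ± 0.09 (adjusted p = 2.81e-05). On ND it was 0.02, and the effects differed by -0.89 (adjusted p = 0.00633).

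Several of the genes described above belonged to the 49. The TG difference of Slc22a27 was -3.57 on HFD and 0.37 on ND, that of Gdpd3 -3.79 and -0.05, and that of Vldlr -1.68 and 0.78, with adjusted p-values for the difference of 0.00943, 0.0253 and 0.0152. For Cyp2c29 the TG difference was -1.32 on HFD and -0.08 on ND (adjusted p = 0.00947), for Cyp2c38 -5.59 and -1.16 (adjusted p = 0.0434), and for Elovl3 -2.33 and -0.28 (adjusted p = 0.0257). In WT livers the means on ND and HFD were 0.66 and 4.03 for Slc22a27, 1.11 and 4.59 for Gdpd3 and 1.52 and 3.53 for Vldlr. In TG livers they were 1.03 and 0.46, 1.06 and 0.80, and 2.30 and 1.85. These genes were chosen for this difference. For Slc22a27 and Gdpd3 TG on HFD and both ND groups of TG and WT were dim, so how near these are to each other is set in part by the floor of the arrays. The comparisons of diet and of genotype share the WT arrays on HFD and are not independent of each other.

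For other genes the difference between the diets missed the threshold. None of the 24 macrophage markers was among the 49, nor were Mt1, Mt2, Gstp3, Bst2 or Kcp, whose adjusted p-values for the difference ran from 0.763 to 0.951. Cidec, Mogat1 and Acot3 were lower in TG on HFD while their ND differences were -0.58, -0.22 and -0.14, yet the test of the difference between the diets missed the threshold for each (adjusted p = 0.534, 0.0772 and 0.304). For these it was not shown that the TG effect depends on diet.

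**Figure D5:**
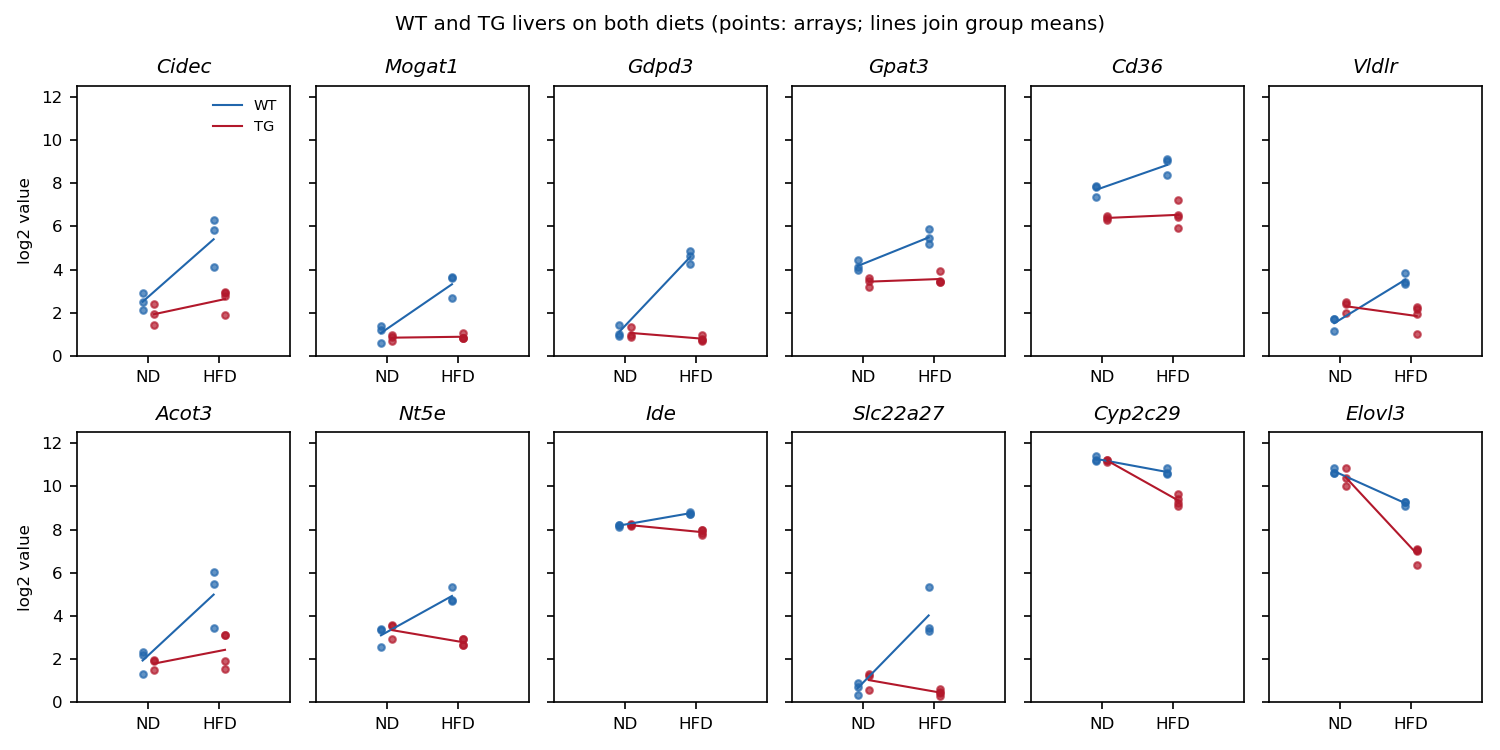
Each panel shows 1 gene, with the log2 value of each array (points) in WT (blue) and TG (red) livers on the normal and the high-fat diet, and lines joining the group means. The test of the difference between the diets passed for Gdpd3, Vldlr, Nt5e, Ide, Slc22a27, Cyp2c29 and Elovl3 and missed the threshold for Cidec, Mogat1, Gpat3, Cd36 and Acot3.

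The KO livers on HFD give a side view, although their comparison with WT uses the same 3 WT arrays and is no independent support. There 75 genes passed against WT, or 0.338%. Cd36, Cidec and Vnn1 had KO means of 8.62, 4.47 and 8.08, beside 6.53, 2.63 and 4.51 in TG and 8.84, 5.40 and 8.52 in WT. Marco had a KO mean of 2.49 beside 5.54 in TG and 1.79 in WT, and Mt2 had 6.93 beside 9.56 and 5.38. The mean of the whole macrophage list ran from 4.88 to 5.18 in the KO arrays, above its range in WT, as did that of the complement list, from 7.33 to 7.51 beside 6.98 to 7.21 in WT.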

How the data were processed

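Total RNA from whole liver was hybridised to Affymetrix arrays, 1 per animal. The deposited values are log2 expression per probe set as the authors made them, with RMA, affy and limma named per the submitters' processing notes; the log base was inferred from the value range, and the order of the steps is not given in the sources used here. Of 41345 probe sets, 23521 had 1 gene symbol in the platform annotation, 1814 had several and 16010 had none and stayed unnamed. For the 1082 symbols with more than 1 probe set, the probe set of highest mean over all arrays was kept, which left 22180 genes. Array medians ran from 0.983 to 1.075, and 56.5% of genes had a mean under 2 and are called dim. No counts lie behind the values, so the number of arrays limits the precision.

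All 19 arrays were fitted in limma 3.58.1 (R 4.3.3) as 6 group means, with 13 residual degrees of freedom, and p-values were adjusted by Benjamini-Hochberg over all genes. The spread between samples is that between arrays taken as separate animals from their numbers. The script was tested on simulated data. Members and the 61 gene lists were chosen with earlier results of these data known. The text names a selection of Kcp, the 30 largest rises and 30 largest falls whose arrays did not overlap, the 15 genes of smallest p for the comparison and for the difference between diets, and list members that passed with up to 6 others. Predicted genes and pseudogenes are counted and not named, with 1 exception. Promoters came from RefSeq on GRCm38.p6. Figures were drawn with matplotlib 3.10.9 (Python 3.11.15). Alternatives were other variance models, filters, scalings, probe set rules, the clock score as a covariate and arrays left out.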

Additional observations from a re-analysis of the deposited data

Results flagged for a closer look

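For 9 of the genes named above the TG effect differed between the diets in limma, as the TG minus WT difference on HFD less that on ND (log2). It was lower on HFD for each of them, by -1.24 for Cyp2c29, -4.43 for Cyp2c38, -2.06 for Elovl3, -3.74 for Gdpd3 and -0.89 for Ide. For Insig2 it was -1.30, for Nt5e -2.38, for Slc22a27 -3.94 and for Vldlr -2.47.

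In 6 of 105 named genes 1 of the 4 TG arrays on HFD lay far from the others, and chance gives such an array in about 1 of 20 groups. TG replicate 2 was that array in 5 of them, at a log2 value of 6.34 for Elovl3, 5.06 for Fitm1, 3.93 for Gpat3, 3.53 for Ly6c2 and 5.88 for Lyve1. In Mogat1 it was TG replicate 4, at 1.05. All TG arrays of Mogat1 were dim, and the rule sets the gap against the range of the 4 arrays. It can thus flag a small gap near the floor of the arrays. TG replicate 2 was also the array of lowest correlation with the others, and its part in the results was not tested beyond leaving it out.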

How the results depend on the processing

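Of 98 named genes that passed, 72 passed without each single array in turn and 49 under all alternatives that tested them. The count of 791 genes was 248 with the 7 arrays alone, 297 without WT replicate 1 and TG replicate 2, and 285 without TG replicates 1 and 2, a pair left out after seeing the data; leaving out 1 array gave 401 to 865. The 373 higher genes became 135, 144 and 164 under those settings, and 199 to 439 without 1 array, and the 418 lower genes 113, 153 and 121, and 201 to 445. Adding the clock score to the model turned the 289 genes on ND into 180 and the 49 whose effect differed between diets into 27. The 49 became 32 without WT replicate 1 and TG replicate 2, 31 without TG replicates 1 and 2, 83 without TG replicates 3 and 4, and 24 to 67 without 1 array. The difference of Kcp ran from 3.15 to 3.57. Id1, which did not pass, ran from -0.335 without WT replicate 1 to 0.06078 without WT replicate 2, where its sign turned. The cause of these shifts was not tested, beyond the fewer arrays in each fit. No paired analysis was possible because the animal numbers are not shared between the groups. Cohort and genotype cannot be told apart, and probes of close paralogs may share signal.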
